A study of Mus musculus with 6 samples.

Results

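The 10 genes Cacna1s, Cacnb1, Stac3, Ryr1, Casq1, Trdn, Jph1, Jph2, Bin1 and Atp2a1 encode the core machinery of excitation-contraction coupling in skeletal muscle, and their chromatin accessibility was described here from ATAC-seq. ATAC-seq marks accessible DNA by the insertions of the transposase Tn5, and the measured value was the count of insertion ends in each interval of the genome. An interval was assigned to one of these genes when any of its bases lay in the gene body or within 1 kb of one of its transcription start sites (TSS) in GENCODE vM1, on mouse build mm9. By this rule 47 of the 39768 intervals of the table belonged to the 10 genes, and each gene had at least 1 interval.

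The study asked whether the histone variant H2A.Z is needed in muscle fibers after cell division has ended. By the labels, nuclei came from the tibialis anterior muscle of C57BL/6 mice aged 7 weeks, and 50000 nuclei entered each library. The paper's methods describe nuclei prepared from hind limb muscles. The 3 CTL libraries, named WT in the titles, and the 3 libraries labelled H2A.Z dKO (dKO below) all carried H2A.Z-1 flox/flox and H2A.Z-2 flox/flox alleles. CTL mice had no Cre, and those labelled dKO also carried HSA CRE, whose human skeletal actin promoter drives Cre recombinase in muscle fibers, so that other nuclei of the muscle keep both genes. The labels number the replicates and do not say whether each came from a separate animal, so the p-values below measure the spread between these libraries.

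In a muscle fiber, an action potential runs down the transverse tubule, where the voltage sensor (the dihydropyridine receptor, a Ca2+ channel) changes its shape and opens the ryanodine receptor of the facing sarcoplasmic reticulum. The released Ca2+ starts contraction, and a Ca2+ pump returns it to the reticulum, where it is held by a buffering protein. The junction of tubule and reticulum, the triad, is built by proteins that bend or bridge the membranes, and defects in several of these genes cause congenital myopathies.

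Depth was 3520008 to 6117245 counts over all intervals in the CTL libraries and 4549968 to 5873299 in the dKO libraries. The floxed exons of the H2A.Z-1 gene H2afz, chr3:137528097-137529104, held 2 intervals with 79, 69 and 33 counts in CTL 1, 2 and 3 and 57, 52 and 64 counts in dKO 1, 2 and 3, or 9.35 to 14.9 and 10.0 to 12.6 CPM (counts-per-million of the library). These few counts overlapped between the groups, the muscle also holds nuclei without Cre, and measures of the deletion in RNA or protein were not analysed here. Muscle fiber markers were at 598 to 718 CPM in CTL and 593 to 735 CPM in dKO, summed over the 8 of 10 genes with an interval (none for Myh2 and Mylpf). Satellite cell markers (3 of 5 genes with an interval, none for Myf5 and Vcam1) were at 64.9 to 80.3 CPM in CTL and 84.8 to 89.5 CPM in dKO, fibroblast markers (5 of 8, none for Dcn, Lum and Tcf21) at 168 to 184 and 184 to 191 CPM, endothelial markers (5 of 8, none for Emcn, Egfl7 and Eng) at 197 to 237 and 179.6 to 190.0 CPM, and macrophage markers (1 of 8, with none for Ptprc and Cd68) at 3.28 to 7.36 and 3.03 to 3.51 CPM. The satellite cell and endothelial sums did not overlap between the groups, as was so for 10.7% of the 13734 single genes. Each of these sums rests on few genes, and their part in the values below was not tested. The satellite cell sum held Pax7, Cdh15 and Itga7, and whether each is confined to that cell type was not tested. In whole muscle, fewer nuclei of a type and less accessibility per nucleus cannot be told apart.

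Of the 47 intervals, 16 had their midpoint within 1 kb of a TSS of their gene and are called promoter intervals here, and the other 31 are called body intervals. Cacna1s had 10 intervals, Jph2 8, Casq1 6, Ryr1 and Bin1 5 each, Atp2a1 4, Jph1 and Trdn 3 each, Cacnb1 2 and Stac3 1. Cacna1s had its 8 body intervals over introns 2, 7, 9 and 16. For Atp2a1 the analysed table listed none within 1 kb of a TSS, and its 4 intervals sat together in and beside intron 5. Cacnb1 had none at the TSS of its reference transcript, and its promoter interval lay 55 bp from an internal TSS. In Ryr1, 3 intervals stood in a row in intron 1, with midpoints 822, 1067 and 1352 bp past the TSS. The members include 6 pairs of intervals that overlap each other, in Cacna1s, Casq1, Bin1 and Atp2a1, and such pairs share insertion ends. Keeping the widest of each pair left 41 intervals.

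**Figure D1:**
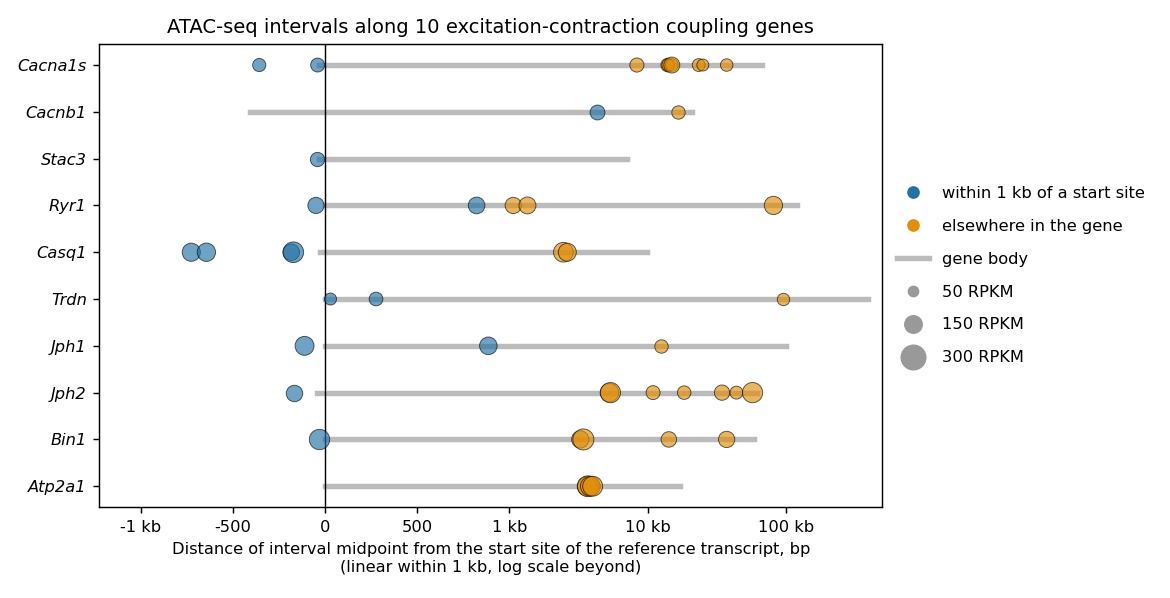
Midpoints of the 47 intervals relative to the TSS of each gene's reference transcript, in bp (linear within 1 kb, log scale beyond), with the area of a point in proportion to its mean RPKM over 6 libraries (counts divided by the interval's width in kb and by the library total). Of the 10 genes, Atp2a1 shows no point within 1 kb of a TSS and a cluster at 3637 to 4008 bp, and Cacnb1 shows none at its own TSS.

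The DNA under these intervals was read from mm9 (NCBIM37), 5′ to 3′ on the strand that matches the transcript. The first set holds the accessible DNA just upstream of the TSS of genes whose promoter interval reaches outside their exons, since it holds the promoters of the coupling machinery, and is shown for 5 of them. Capitals mark E-boxes (CANNTG), the letters bound by the myogenic MyoD family.
Cacna1s, chr1:137949201-137949326, plus strand, 126 bases: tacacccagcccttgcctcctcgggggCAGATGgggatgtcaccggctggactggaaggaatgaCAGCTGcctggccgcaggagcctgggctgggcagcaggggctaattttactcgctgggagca
Stac3, chr10:126938607-126938741, plus strand, 135 bases: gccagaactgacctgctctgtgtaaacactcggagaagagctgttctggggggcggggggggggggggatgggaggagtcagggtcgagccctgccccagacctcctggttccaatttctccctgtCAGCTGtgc
Ryr1, chr7:29910171-29910314, minus strand, 144 bases: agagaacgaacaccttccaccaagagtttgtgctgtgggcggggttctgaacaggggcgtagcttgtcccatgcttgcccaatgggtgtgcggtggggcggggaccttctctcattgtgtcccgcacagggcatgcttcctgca
Casq1, chr1:174150085-174150281, minus strand, 197 bases: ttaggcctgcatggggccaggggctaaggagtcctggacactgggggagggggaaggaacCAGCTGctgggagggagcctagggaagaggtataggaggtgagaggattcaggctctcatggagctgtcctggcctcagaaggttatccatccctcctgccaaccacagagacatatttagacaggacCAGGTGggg
Jph2, chr2:163223730-163224014, minus strand, 285 bases: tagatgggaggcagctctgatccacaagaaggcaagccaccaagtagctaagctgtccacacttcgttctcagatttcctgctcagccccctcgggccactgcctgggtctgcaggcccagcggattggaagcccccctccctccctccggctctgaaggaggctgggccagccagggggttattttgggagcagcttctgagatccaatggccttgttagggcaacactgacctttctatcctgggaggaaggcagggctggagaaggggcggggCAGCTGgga

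Within these stretches an E-box of the form CAGCTG was present in Cacna1s, Stac3, Casq1 and Jph2, beside a CAGATG in Cacna1s and a CAGGTG in Casq1, and the Ryr1 stretch held no E-box. The GC content of the 5 stretches ran from 58.9% to 64.3%. The GC box letters GGGCGG, on either strand, were in the Stac3, Ryr1 and Jph2 stretches.

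The second set holds intronic intervals, which carry most of the accessible DNA of these genes, including the Jph2 interval with the smallest p-value below and the Atp2a1 cluster.
Atp2a1 intron 5, chr7:133602713-133602822, minus strand, 110 bases: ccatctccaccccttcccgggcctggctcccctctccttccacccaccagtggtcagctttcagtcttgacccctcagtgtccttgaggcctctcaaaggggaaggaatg
Atp2a1 intron 5, chr7:133602890-133602950, minus strand, 61 bases: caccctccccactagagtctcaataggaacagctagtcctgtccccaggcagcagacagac
Ryr1 intron 1, chr7:29909017-29909189, minus strand, 173 bases: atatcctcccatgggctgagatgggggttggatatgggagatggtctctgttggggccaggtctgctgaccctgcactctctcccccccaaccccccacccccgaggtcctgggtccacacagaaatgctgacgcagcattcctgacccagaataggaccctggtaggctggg
Casq1 intron 2, chr1:174147485-174147594, minus strand, 110 bases: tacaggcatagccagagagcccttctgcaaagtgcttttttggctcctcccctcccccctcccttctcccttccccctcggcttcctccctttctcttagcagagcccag
Trdn intron 5, chr10:32899567-32899690, plus strand, 124 bases: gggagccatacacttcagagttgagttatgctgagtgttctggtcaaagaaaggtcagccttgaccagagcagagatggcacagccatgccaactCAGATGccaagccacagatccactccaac
Cacnb1 intron 11, chr11:97867176-97867281, minus strand, 106 bases: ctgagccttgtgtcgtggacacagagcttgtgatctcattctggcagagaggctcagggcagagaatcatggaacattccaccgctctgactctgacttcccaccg
Jph2 intron 3, chr2:163166095-163166120, minus strand, 26 bases: actctagcctgcgttgggtgactatt

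Of these 7, only the Trdn interval held an E-box. The MCAT letters CATTCC, known as the site of TEAD factors, were present on one of the strands in the first Atp2a1 interval, the Ryr1 interval and the Cacnb1 interval of this set and in the Cacna1s upstream stretch.

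The letters were then counted in windows of 200 bp centred on each interval, on both strands. CAGCTG, which is one form of CANNTG, was in 7 of the 16 promoter windows of the members (43.8%) and in 12.0% of the 20826 windows of all promoter intervals. Any E-box was in 11 of 16 (68.8%), against 45.6%. MCAT was in 4 of 16 (25.0%), against 6.98%, and the GC box in 6 of 16 (37.5%), against 56.9%. The median GC content of the promoter windows was 60.5%, with a median of 4 CpG, beside 65.0% and 16 CpG over all promoter intervals. In the 31 body windows, any E-box was in 22 (71.0%), CAGCTG in 6 (19.4%), MCAT in 7 (22.6%) and the TATA letters TATAAA in 6 (19.4%), beside 71.7%, 25.0%, 13.5% and 6.71% of the 9743 windows of all intervals inside genes and away from a TSS. The MEF2 site, in its consensus letters, was in 3 body windows (9.68%), all in Jph2 and with the windows at 5305 and 5389 bp sharing bases, against 2.36%. No promoter window of the members held TATAAA, against 2.82%, and the MEF3 letters TCAGGTT and the CArG box, also searched, were in at most 1 window of either kind. These shares describe letters in a fixed window, and windows of overlapping intervals share their bases. The CAGCTG and GC box of the Jph2 stretch above lay outside the window of its interval and were not counted.

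Per length, accessibility ran from 81.9 to 194 RPKM across the genes. Taken over each gene's intervals, with the widest of overlapping ones, Atp2a1 stood highest at 194 ± 27.2 RPKM (SD over 6 libraries), followed by Jph1 at 171 ± 15.5, Casq1 at 164 ± 5.67, Bin1 at 161 ± 10.3 and Ryr1 at 142 ± 22.4 RPKM. Jph2 at 116 ± 12.2, Stac3 at 105 ± 15.2, Cacnb1 at 98.5 ± 20.5, Cacna1s at 87.6 ± 10.0 and Trdn at 81.9 ± 8.53 RPKM were lower. Each gene differed from the next in this order by less than the larger of their SDs, except Ryr1 and Jph2, whose gap was 25.7 RPKM. Over the 47 intervals the median level was 132 ± 9.69 RPKM in CTL and 135 ± 17.1 RPKM in dKO (SD, n = 3), beside 116 ± 0.66 and 116 ± 4.34 RPKM over all intervals. The promoter intervals had medians of 138 ± 7.98 and 139 ± 12.6 RPKM, near the 133 ± 0.295 and 133 ± 3.88 RPKM of all promoter intervals. The body intervals had medians of 119 ± 15.1 and 133 ± 22.2 RPKM, beside 97.7 to 101 RPKM in the CTL libraries and 85.1 to 109 RPKM in the dKO libraries for all intervals inside genes and away from a TSS.

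**Figure D2:**
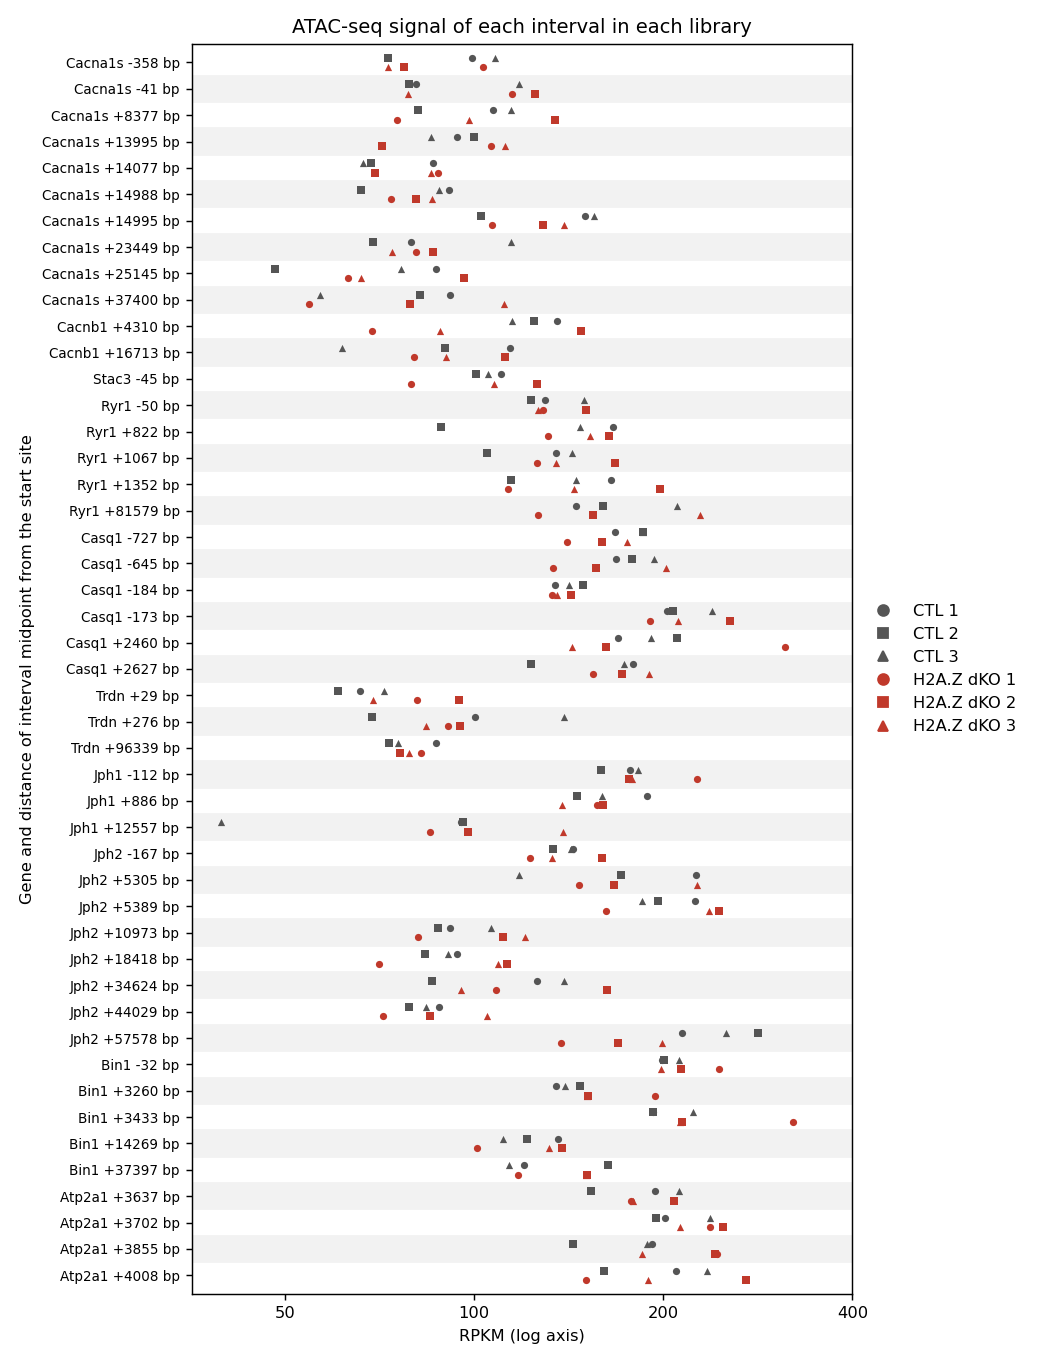
RPKM (log axis) of each of the 47 intervals in the 3 CTL and 3 dKO libraries, with the gene and the distance of the midpoint from the TSS on the vertical axis. The groups overlap in 45 intervals, and in the Jph2 interval at 57578 bp and the Bin1 interval at 3260 bp they are apart.

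The voltage sensor genes came first. Cacna1s encodes the pore and voltage-sensing subunit of the dihydropyridine receptor and lies at chr1:137949327-138016399, plus strand. Its interval at the TSS, chr1:137949201-137949439, had 80.7, 78.6 and 118 RPKM in CTL 1, 2 and 3 and 115, 125 and 78.3 RPKM in the dKO libraries. The values overlapped, with CTL 3 above dKO 1 and dKO 3, and the log2 fold change (dKO over CTL) was 0.22 ± 0.20 (SE). The Cacna1s interval of highest level, in intron 2 at 14995 bp, had 150.3, 103 and 155 RPKM in the CTL and 107, 129 and 139 RPKM in the dKO libraries, and its log2 fold change was -0.13 ± 0.21 (SE). Among the other 8 Cacna1s intervals the log2 fold change ran from -0.12 to 0.12, and 48.2 RPKM in CTL 2 at 25145 bp was the lowest value. Summed over its 10 intervals, Cacna1s had 144, 113 and 149 CPM in CTL 1, 2 and 3 and 135, 149 and 133 CPM in dKO 1, 2 and 3. The dKO values lay inside the range of the CTL values, with means of 135 ± 19.2 and 139 ± 8.5 CPM (SD, n = 3), a log2 fold change of 0.038 ± 0.11 (SE) and an edgeR adjusted p of 0.985.

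Cacnb1, at chr11:97862822-97884348, minus strand, encodes the beta subunit that carries the voltage sensor to the tubule membrane. Its 52 bp interval at the internal TSS, chr11:97879606-97879657, overlapping an exon of another transcript, had 135, 125 and 115 RPKM in CTL 1, 2 and 3 and 68.8, 148 and 88.1 RPKM in the dKO libraries. The CTL libraries lay close together while dKO 1 was low and dKO 2 was the highest of the 6, and the log2 fold change was -0.34 ± 0.27 (SE) with an edgeR p of 0.219 and an adjusted p of 0.972. In dKO 1 the value was 0.567 of the median of the other 5 libraries, and the log2 fold change was -0.13 without dKO 1 and -0.68 without dKO 2. The interval in intron 11 had 114, 89.7 and 61.6 RPKM in the CTL and 80.3, 112 and 90.2 RPKM in the dKO libraries. Summed over both intervals, Cacnb1 had 19.2, 16 and 12.5 CPM in CTL 1, 2 and 3 and 12.5, 19.3 and 13.9 CPM in dKO 1, 2 and 3. Its log2 fold change was -0.10 ± 0.21 (SE), and of the 10 genes this one had the widest 95% interval of the ratio, 0.681 to 1.28.

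Stac3, at chr10:126938742-126945879, plus strand, encodes an adaptor that links the voltage sensor to the release channel. Its single interval, chr10:126938607-126938849, covered the TSS and part of exon 1 and had 110.3, 100.5 and 105 RPKM in CTL 1, 2 and 3 and 79.2, 126 and 107 RPKM in the dKO libraries. The 3 CTL values lay inside the range of the dKO values. The means were 105 ± 4.94 RPKM in CTL and 104 ± 23.4 RPKM in dKO (SD, n = 3) and the log2 fold change was -0.031 ± 0.18 (SE), with a 95% interval of -0.40 to 0.34.

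Ryr1, at chr7:29788359-29910170, minus strand, encodes the release channel. At its TSS, chr7:29910127-29910314, the signal was 129.6, 123 and 149.6 RPKM in CTL 1, 2 and 3 and 129, 151 and 126 RPKM in the dKO libraries, and the log2 fold change was 0.015 ± 0.17 (SE). The 3 intervals of intron 1 reached similar levels. The one at 822 bp had 166, 88.4 and 147 RPKM in the CTL and 131, 164 and 153 RPKM in the dKO libraries, where CTL 2 was the lowest at 0.588 of the median of the other libraries. The one at 1067 bp had 135, 105 and 143 RPKM in the CTL and 126, 168 and 135 RPKM in the dKO libraries, and the one at 1352 bp had 165, 114.5 and 145 RPKM in the CTL and 113, 197.5 and 144 RPKM in the dKO libraries. In each of these 3 intervals dKO 2 stood above dKO 1 and dKO 3, and CTL 2 was the lowest of the CTL libraries. The level per length was highest in a 27 bp interval of intron 84, chr7:29828578-29828604, with 24, 20 and 20 counts in the CTL and 20, 19 and 31 counts in the dKO libraries, so that a few ends move it. Summed over 5 intervals Ryr1 had 141, 101 and 136 CPM in CTL 1, 2 and 3 and 117, 157 and 130.2 CPM in dKO 1, 2 and 3. CTL 2 was the lowest and dKO 2 the highest of the 6 libraries, the log2 fold change was 0.10 ± 0.14 (SE) and the edgeR adjusted p was 0.982.

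Casq1 encodes calsequestrin, the Ca2+ buffer of the reticulum, and lies at chr1:174140025-174150026, minus strand. It had 4 intervals upstream of its TSS, all outside annotated exons. The highest per length, chr1:174150148-174150197, had 203, 207 and 239 RPKM in CTL 1, 2 and 3 and 191, 255 and 211 RPKM in the dKO libraries. It lies inside the wider interval at -184 bp, which had 134, 149 and 141 RPKM in the CTL and 133, 143 and 135.5 RPKM in the dKO libraries and the narrow spread of 142 ± 7.36 RPKM in CTL and 137 ± 5.06 RPKM in dKO (SD, n = 3). The interval farthest upstream, at -727 bp, had 167, 186 and 185 RPKM in the CTL and 141, 159.9 and 175 RPKM in the dKO libraries. Here the CTL values were higher on average, with dKO 3 above CTL 1, and the log2 fold change was -0.18 ± 0.15 (SE) with an edgeR p of 0.233 and an adjusted p of 0.972. In intron 2, the interval at 2460 bp, whose letters are given above, had 169, 210.1 and 191 RPKM in the CTL and 313, 162 and 143 RPKM in the dKO libraries. The library dKO 1 was 1.9 times the median of the other 5, and the other dKO libraries were the lowest of all. The Casq1 sum varied little between libraries, with 126, 131 and 135 CPM in CTL 1, 2 and 3 and 133, 124 and 126.5 CPM in dKO 1, 2 and 3, means of 131 ± 4.86 and 128 ± 4.81 CPM (SD, n = 3) and a log2 fold change of -0.03 ± 0.089 (SE).

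Trdn encodes triadin, which anchors calsequestrin to the release channel, and lies at chr10:32803289-33196515, plus strand. Its interval at the TSS had 65.7, 60.6 and 71.7 RPKM in CTL 1, 2 and 3 and 81.2, 94.5 and 68.9 RPKM in the dKO libraries, and the one at 276 bp, of exon 1 and intron 1, had 100.3, 68.7 and 139 RPKM in the CTL and 90.9, 94.9 and 83.7 RPKM in the dKO libraries. In the first, dKO 1 and dKO 2 were above all CTL libraries and dKO 3 was not. In the second, CTL 3 was the highest and CTL 2 the lowest. The log2 fold changes were 0.31 ± 0.23 (SE) and -0.16 ± 0.25 (SE). The intron 5 interval, 96339 bp into the gene, gave 78.6 ± 7.39 RPKM in CTL and 79.1 ± 3.1 RPKM in dKO (SD, n = 3) and a log2 fold change of 0.0026 ± 0.21 (SE). Summed over 3 intervals, the Trdn means in CTL and dKO were 25.8 ± 3.84 and 26.4 ± 2.01 CPM (SD, n = 3).

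Junctophilins bridge the tubule and the reticulum. Jph1, at chr1:16987545-17087879, minus strand, had the widest interval of the 47, 488 bp over its TSS, with 177, 159 and 182 RPKM in CTL 1, 2 and 3 and 226, 176.5 and 178 RPKM in the dKO libraries. The library dKO 1 was the highest, the other dKO libraries lay within the CTL range, and the log2 fold change was 0.17 ± 0.12 (SE) with a 95% interval of -0.083 to 0.42, and it was 0.017 without dKO 1. The Jph1 interval at 886 bp had 189, 146 and 159.5 RPKM in the CTL and 157, 160.0 and 138 RPKM in the dKO libraries. The 36 bp interval of intron 2 held the fewest ends of the 47, with 21, 16 and 5 counts in the CTL and 18, 16 and 25 counts in the dKO libraries. CTL 3, the library with the lowest total, was at 0.409 of the median of the other 5 there, and the log2 fold change of 0.39 ± 0.32 (SE) had a 95% interval of -0.27 to 1.05 that reached past 2-fold. The Jph1 sum was 133, 114.5 and 126 CPM in CTL 1, 2 and 3 and 154, 124 and 122 CPM in dKO 1, 2 and 3, with a log2 fold change of 0.10 ± 0.11 (SE).

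Jph2, at chr2:163161978-163223729, minus strand, had 7 intronic intervals and 1 upstream of its TSS. The upstream interval, chr2:163223690-163224014, had 143, 134 and 142.5 RPKM in CTL 1, 2 and 3 and 123, 159.6 and 133 RPKM in the dKO libraries and a log2 fold change of -0.021 ± 0.14 (SE). The 26 bp interval of intron 3, chr2:163166095-163166120, had 34, 34 and 23 counts in the CTL and 21, 20 and 26 counts in the dKO libraries. Per length this was 214, 282.5 and 251 RPKM in CTL 1, 2 and 3 and 137.5, 169 and 199 RPKM in the dKO libraries. All 3 CTL libraries were above all 3 dKO libraries, with means of 249 ± 34.4 RPKM in CTL and 169 ± 30.8 RPKM in dKO (SD, n = 3). The log2 fold change was -0.56 ± 0.25 (SE), with a 95% interval of -1.08 to -0.032, an edgeR p of 0.0385 and an adjusted p of 0.972, so it did not pass. The table lists this interval in a set named WT, made from the same libraries, so its higher CTL values are not independent of how it was listed. The other Jph2 intervals had log2 fold changes from -0.021 to 0.13. The narrow intervals at 5305 and 5389 bp of intron 1 stood close to each other. The first had 225.5, 171 and 118 RPKM in the CTL and 147, 167 and 227 RPKM in the dKO libraries. The second had 224, 196 and 185 RPKM in the CTL and 162, 245 and 236 RPKM in the dKO libraries, and the groups overlapped in both. The Jph2 sum was 144.5, 131 and 144 CPM in CTL 1, 2 and 3 and 122, 156 and 151 CPM in dKO 1, 2 and 3, and its log2 fold change of 0.03 ± 0.11 (SE) was near 0.

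Bin1 encodes amphiphysin 2, which shapes the transverse tubule, and lies at chr18:32536871-32595390, plus strand. Its TSS interval, which also overlaps the lincRNA A830052D11Rik, had 199, 200.1 and 211.5 RPKM in CTL 1, 2 and 3 and 245, 213 and 198.5 RPKM in the dKO libraries. In intron 1 the 419 bp interval at 3260 bp had 135, 147.5 and 139.7 RPKM in CTL 1, 2 and 3 and 194, 152 and 151 RPKM in the dKO libraries. Each dKO library was above each CTL library there, by a small step for dKO 2 and dKO 3, and the log2 fold change was 0.24 ± 0.13 (SE) with an edgeR p of 0.0767 and an adjusted p of 0.972. The table lists it in the set named KO, so its higher dKO values are likewise not independent of the listing. The narrower interval at 3433 bp, of the set WT, overlaps it and had 192, 193 and 223 RPKM in the CTL and 322, 214 and 213 RPKM in the dKO libraries, with dKO 1 at 1.59 times the median of the other 5 libraries and a log2 fold change of 0.32 ± 0.21 (SE) with an edgeR p of 0.139 and an adjusted p of 0.972. Without dKO 1 the log2 fold changes of these overlapping intervals were 0.084 and 0.062. Both intervals at 14269 and 37397 bp had log2 fold changes near 0, -0.0083 ± 0.15 (SE) and 0.065 ± 0.25 (SE). Summed over 5 intervals, Bin1 had 184, 187 and 183 CPM in CTL 1, 2 and 3 and 228, 196 and 189 CPM in dKO 1, 2 and 3. Its groups did not overlap, as in 10.7% of the 13734 genes tested. The log2 fold change was 0.15 ± 0.10 (SE), and the 95% interval of the ratio was 0.957 to 1.28, with an edgeR p of 0.157 and an adjusted p of 0.967.

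Atp2a1 encodes SERCA1, the Ca2+ pump of fast fibers, and lies at chr7:133589372-133606622, minus strand. The mean RPKM of its 4 intervals in and beside intron 5 stood at the percentiles 86.5 to 93.1 of all intervals. The interval at 3702 bp had 201, 195 and 237.5 RPKM in CTL 1, 2 and 3 and 237, 249 and 212 RPKM in the dKO libraries. It lies inside the 228 bp interval at 3637 bp, which also covers part of exon 5 and had 194, 153.5 and 212 RPKM in the CTL and 178, 208 and 179 RPKM in the dKO libraries. The interval at 3855 bp had 192, 143 and 188.5 RPKM in CTL 1, 2 and 3 and 243, 242 and 185 RPKM in the dKO libraries. There dKO 1 and dKO 2 were above all CTL libraries while dKO 3 was below CTL 1 and CTL 3, and the log2 fold change was 0.36 ± 0.19 (SE) with an edgeR p of 0.0733 and an adjusted p of 0.972. The interval at 4008 bp had 209, 161 and 235 RPKM in the CTL and 151, 271 and 189 RPKM in the dKO libraries, the lowest and the highest of the 6 values both in the dKO group, and a log2 fold change of 0.0045 ± 0.20 (SE). The Atp2a1 sum was 103, 82.2 and 112 CPM in CTL 1, 2 and 3 and 103, 120.1 and 95.5 CPM in dKO 1, 2 and 3, with means of 99 ± 15.1 and 106 ± 12.6 CPM (SD, n = 3), a log2 fold change of 0.10 ± 0.12 (SE) and an edgeR adjusted p of 0.982.

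**Figure D3:**
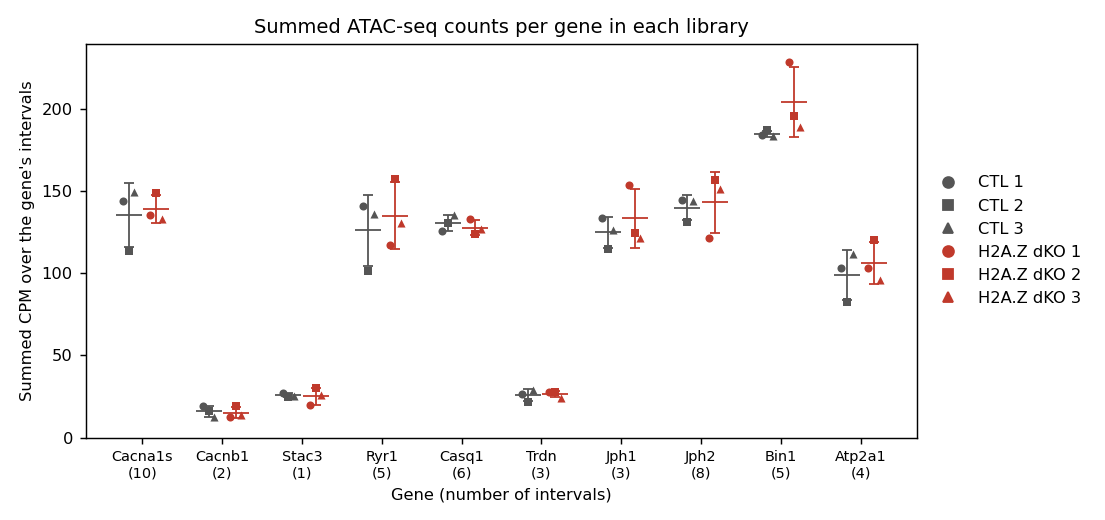
Summed CPM, scaled by TMM, over each gene's intervals (vertical axis, from 0) in each library, with the mean and SD of each group as bars. The CTL and dKO libraries overlap in 9 of the 10 genes, and in Bin1 the 3 dKO libraries lie above the 3 CTL libraries by a margin small beside the spread of dKO.

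No interval of the 10 genes passed an adjusted p of 0.05 in edgeR's quasi-likelihood test, as was the case for 0 of the 39768 intervals tested (0.0%). At an unadjusted p under 0.05 the Jph2 interval of intron 3 was the only 1 of 47, beside 4.95% of all intervals, and DESeq2 called 0 of 47 at either level. This count was 0 without CTL 2, CTL 3 or dKO 1 and 2 without dKO 2 or dKO 3. The scaled counts of the groups did not overlap in 2 of 47 intervals, in Jph2 and Bin1, beside 10.8% of all intervals. For 45 of the 47 the 95% interval of the fold change lay within 2-fold in both directions, beside 91.4% of all intervals, and for 33 (of 47) it lay within 1.5-fold, beside 49.6% of all intervals. The exceptions at 2-fold were the intron 3 interval of Jph2 and the intron 2 interval of Jph1, of 26 and 36 bp. The median log2 fold change was 0.039 over the members and 0.012 over all intervals, and the former was -0.021 without CTL 2 and -0.031 without dKO 2. Of the 47, 33 had a log2 fold change above 0 (70.2%), beside 52.5% of all intervals. This count rested on 2 libraries, since it was 20 of 47 (42.6%) without CTL 2 and 22 of 47 (46.8%) without dKO 2, beside 52.2% and 51.2% of all intervals.

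Summed per gene, 0 of the 10 passed the adjusted threshold in edgeR (0.0% of 13734 genes did) and 0 of 10 had an unadjusted p under 0.05, beside 4.35% of all genes. DESeq2 and limma voom gave 0 of 10 at both levels as well. The log2 fold changes ran from -0.097 in Cacnb1 to 0.15 in Bin1, with 7 genes above 0 and 3 (Cacnb1, Stac3 and Casq1) below, and 8 of the 10 changed their sign when 1 of the libraries was left out. In the other 2, the log2 fold change ran from 0.057 (without dKO 1) to 0.19 for Bin1 and from -0.059 to -0.0011 (without CTL 3) for Casq1. All 10 had a 95% interval within 1.5-fold in both directions, as did 84.3% of all genes. Over all member intervals together, the sums were 1047, 922 and 1052 CPM in CTL 1, 2 and 3 and 1052, 1103 and 1009.9 CPM in dKO 1, 2 and 3. The means of 1007 ± 73.8 and 1055 ± 46.5 CPM (SD, n = 3) stood in a ratio of 1.05, with p = 0.5 in an exact two-sided permutation test whose smallest possible p is 0.1. This ratio was 1.0 without CTL 2 and 1.02 without dKO 2, and ran up to 1.07 with another library left out.

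**Figure D4:**
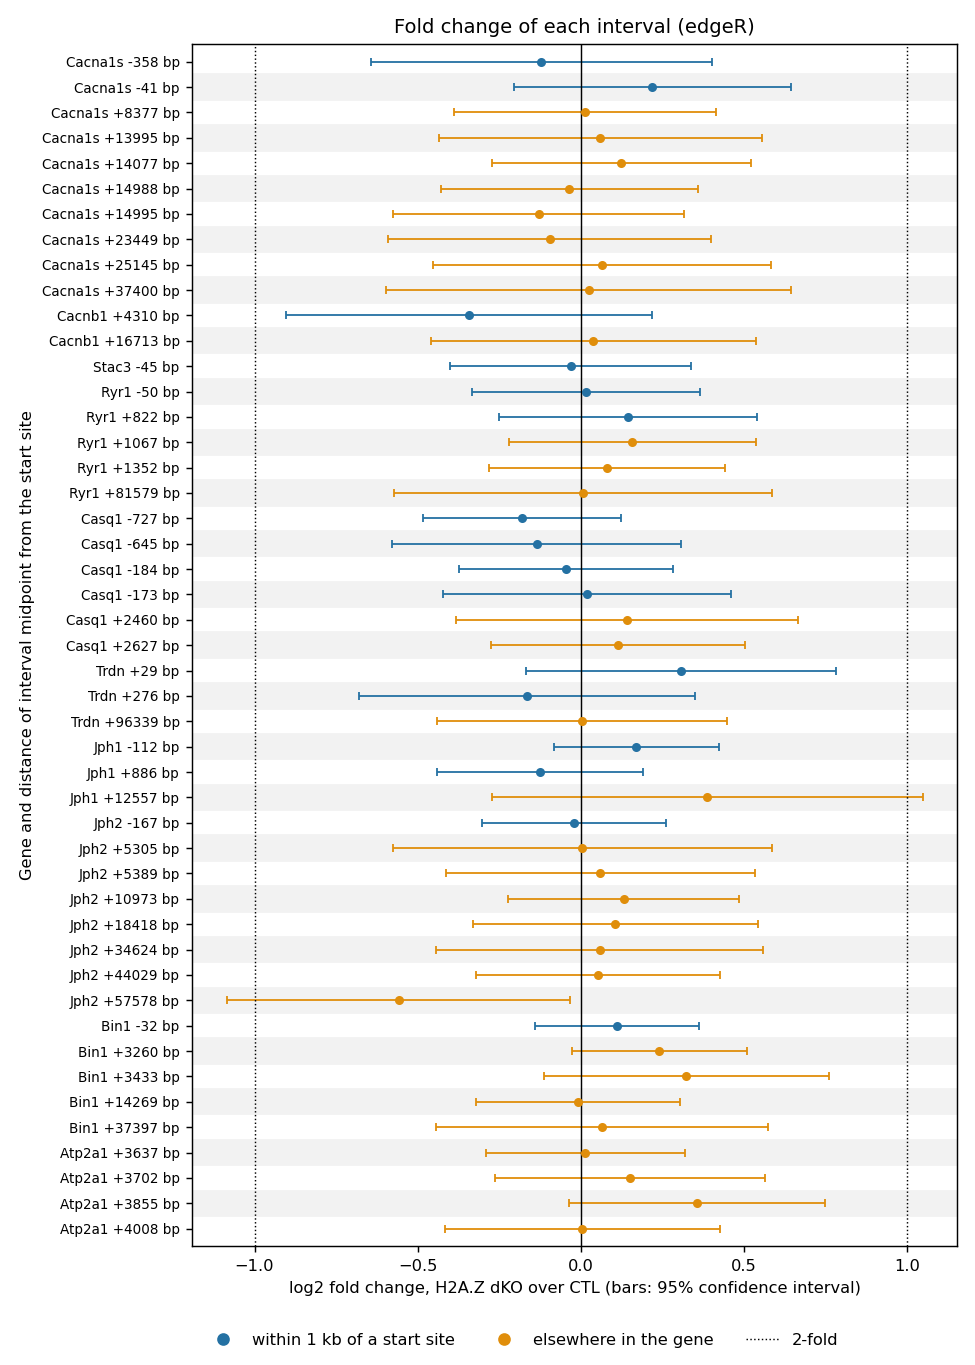
Log2 fold change of dKO over CTL for each of the 47 intervals from edgeR, with 95% confidence intervals (bars), colored by promoter or body. The interval of the Jph2 point at 57578 bp does not reach 0, and the bars of the other 46 cross it.

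Promoter and body intervals were set side by side. Of the 16 promoter intervals, 7 had a log2 fold change above 0, with a median of -0.026, beside 52.7% and a median of 0.011 for all promoter intervals. Of the 31 body intervals, 26 were above 0, with a median of 0.06, beside 53.1% and a median of 0.019 for all intervals inside genes and away from a TSS. Without CTL 2 this count was 16 of 31, and without dKO 2 it was 17 of 31. The promoter count was 4 of 16 without CTL 2. With 1 library left out, the promoter median ran from -0.077 to 0.031 and the body median from 0.012 to 0.12. The members' body intervals lay 0.16 below the mean of the 6 libraries on the log2 scale in CTL 2 (median -0.16), at -0.11 in dKO 1 and at 0.12 in dKO 2. Over all intervals inside genes and away from a TSS the medians were -0.023, -0.14 and 0.10 in these libraries. Both dKO shifts were thus shared by such intervals in general, while the CTL 2 shift was larger in the members. Muscle fiber markers were lowest in the same CTL 2 and dKO 1, at 598 and 593 CPM, and highest in dKO 2, at 735 CPM, and the part of this in the count was not tested. Promoter intervals took 45.1% ± 0.852 of the members' scaled counts in CTL and 44.1% ± 1.51 in dKO (SD, n = 3), with p = 0.4 in the exact permutation test.

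A column of the table puts each interval in a set named both, KO or WT. Of the 47, 14 were in the set both, 22 in KO and 11 in WT (29.8%, 46.8% and 23.4%), beside 38.7%, 43.4% and 17.9% of all intervals. In the KO set 17 of 22 had a log2 fold change above 0 (69.8% of all KO intervals did), in the WT set 5 of 11 did (29.5% of all WT intervals), and in the set both 11 of 14 did (43.7% of all such intervals). The sets were made from the same libraries, so these directions are a description. In Cacna1s intron 2, the interval at 14995 bp of the WT set lies inside that at 14988 bp of the KO set, and in Atp2a1 the WT interval at 3637 bp encloses the KO interval at 3702 bp, so that the same bases were listed in both sets.

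Other genes of voltage sensing, Ca2+ release and uptake, triads, store-operated entry and membrane excitability were taken as a list of 55. Of these, 47 had an interval, 219 in all, and Ryr3, Stac2, Atp2a3, Sln, Calm3, Cav3, Clcn1 and Rrad had none in the table analysed here. Per gene, 0 of 47 passed the adjusted threshold in edgeR, with 0 of 47 in DESeq2 too. At an unadjusted p under 0.05, 1 of 47 was lower and 0 were higher, beside 4.35% of all genes in either direction, while 0 of 47 passed without CTL 3 or dKO 3, 2 without CTL 1 and 4 without dKO 1. The one was Pln, which encodes phospholamban, an inhibitor of the Ca2+ pump of slow fibers and heart. Its single interval had 3.11, 2.81 and 6.51 CPM in the CTL and 2.81, 1.52 and 1.18 CPM in the dKO libraries, a log2 fold change of -1.06 ± 0.41 (SE), an edgeR p of 0.0224 and an adjusted p of 0.967. Without CTL 3 the log2 fold change was -0.66. These levels rest on few ends, and Pln left the test when at least 20 counts were required in every library. The 3 highest sums were those of Homer1, a scaffold protein, Speg, a kinase of the triad, and Srl, which encodes the Ca2+-binding sarcalumenin. Such a sum grows with the number and width of the intervals. Homer1 had 519, 514 and 575 CPM in the CTL and 704, 533 and 594 CPM in the dKO libraries, with dKO 1 the highest. Speg had 282, 240.4 and 284 CPM in the CTL and 270.0, 278 and 271 CPM in the dKO libraries, and Srl had 268, 235 and 269 CPM in the CTL and 234, 274 and 269.6 CPM in the dKO libraries, with overlapping groups in both. The smallest p-values among the higher genes were those of Hrc, a Ca2+-binding protein of the reticulum lumen, at 0.22 ± 0.12 (SE), Homer1 at 0.19 ± 0.11 (SE) and Casq2, the slow-fiber and cardiac calsequestrin, at 0.18 ± 0.12 (SE). Leaving out 1 library lowered them to 0.11 for Hrc (without CTL 2), 0.075 for Homer1 (without dKO 1) and 0.061 for Casq2 (without dKO 2). Among the lower genes, the inositol trisphosphate receptor gene Itpr1 was at -0.11 ± 0.087 (SE). These 4 genes and Pln had an edgeR adjusted p of 0.967. The groups did not overlap in 2 of the 47 genes, Pln and Itpr1, beside 10.7% of all genes, and in Pln CTL 2 and dKO 1 were equal at the precision printed. Over the 47 genes 32 had a log2 fold change above 0, with a median of 0.053, beside 49.3% and a median of -0.0019 over all genes. This count ran from 26 to 35 with 1 library left out. It was 26 (55.3%) both without CTL 2 and without dKO 1, beside 50.2% and 42.6% of all genes, and 35 (74.5%) without CTL 3, beside 49.2%.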

How the data were processed

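ATAC-seq was measured in 3 CTL libraries and 3 libraries labelled H2A.Z dKO. Per the methods and the processing notes, the authors trimmed reads with Trimmomatic, aligned them to mm9 with Bowtie2, removed duplicates with Picard, centred fragment ends on the Tn5 insertion and called peaks with MACS2. They deposited the raw count of ends per interval and library, without normalization, and these counts were used here. Intervals reflect counting error and library spread only. Their columns of DESeq2 fold changes and p-values were not used, and 0 library columns were left out. Starts were read as BED (counted from 0), and overlaps with the genes were taken from GENCODE vM1. The table holds fewer intervals than the union that the methods describe, so a gene or promoter given as without an interval is so in this table only.

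Counts of all 39768 intervals were fitted with edgeR 4.0.16 (TMM, robust quasi-likelihood, no filter) in R 4.3.3, and p-values were adjusted over the whole table by Benjamini-Hochberg at a threshold of 0.05. Counts summed per gene were fitted likewise over 13734 genes. The biological coefficient of variation was 0.126 for intervals and 0.0998 for genes. CPM are scaled by TMM factors (0.971 to 1.02), and RPKM divide a count by interval width and library total. The interval fit was also run on counts simulated from its own model. That run checked the code and did not measure power at the small fold changes described here.

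Alternatives were DESeq2 1.42.0, limma 3.58.1 voom, other scalings, a filter of 20 counts, a replicate block, other interval assignments, a threshold of 0.1 and each library left out. Members and lists were chosen with earlier results of these data known. Named were all 10 members, the interval of highest RPKM per gene and the 3 smallest p in each direction, and of the pathway list the 3 highest sums and the 3 smallest p in each direction. The intervals of a few printed sequences were chosen after their values were seen. One gene of the pathway list and one promoter sequence are not reported here.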

Additional observations from a re-analysis of the deposited data

How the results depend on the processing

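The counts of 0 intervals and 0 genes of the coupling machinery past an adjusted p of 0.05, and of 0 pathway genes, held under every alternative run for them. For the coupling machinery these included DESeq2, limma voom, a threshold of 0.1 and each library left out, and for the pathway genes DESeq2, a filter of 20 counts and each library left out. DESeq2 gave 0 member intervals at an unadjusted p under 0.05 in place of 1, and a filter of 20 counts left 0 pathway genes in place of 1. With each library left out in turn, the number of member intervals at an unadjusted p under 0.05 ran from 0 to 2, that of member intervals above 0 from 20 to 33, that of promoter intervals above 0 from 4 to 8, that of body intervals above 0 from 16 to 26 and that of pathway genes at an unadjusted p under 0.05 from 0 to 4. The log2 fold change of the 27 bp Ryr1 interval of intron 84 changed its sign with DESeq2 (-0.0037), limma voom (-0.024) and the replicate block (-0.040). Leaving out each library in turn, the gene-level log2 fold change ran from -0.074 to 0.11 for Cacna1s, -0.29 to 0.074 for Cacnb1, -0.18 to 0.12 for Stac3, -0.040 to 0.19 for Ryr1, -0.072 to 0.13 for Trdn, -0.023 to 0.15 for Jph1, -0.038 to 0.14 for Jph2, -0.015 to 0.19 for Atp2a1, -0.049 to 0.081 for Srl and -0.053 to 0.065 for Speg. The named intervals whose sign changed ran from -0.17 to 0.12 (Stac3), -0.27 to 0.19 (Ryr1 intron 84), -0.088 to 0.094 (Casq1 at -173 bp) and -0.38 to 0.070 (Trdn at 276 bp). Others kept their sign but moved by more than their SE, from 0.084 to 0.31 and 0.062 to 0.43 (Bin1 at 3260 and 3433 bp), 0.017 to 0.24 (Jph1 at its TSS) and -0.68 to -0.13 (Cacnb1 at its internal TSS), as did Pln (-1.53 to -0.66) and Homer1 (0.075 to 0.28). Hrc ran from 0.11 to 0.30 and Casq2 from 0.061 to 0.25. The cause was not tested, and a fit with 2 libraries in a group assumes that they vary like the rest.

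Whether the replicate numbers pair the libraries is not said in the labels, and 3 libraries in a group cannot decide it. Deviations of same-numbered libraries correlated at -0.121, -0.0778 and -0.06 over 30384 intervals, and those of other pairs at -0.0501 to 0.114. With the replicate block 1 member interval had an unadjusted p under 0.05, as without it. Some alternatives were added after the data were seen. These were leaving libraries out for the counts above 0, the promoter and body medians and the pathway list, and gene sums over the widest of overlapping intervals. Depth limits the narrow intervals most, since 26 to 50 bp held as few as 5 ends in a library.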
